A study of Rattus norvegicus with 28 samples.

Results

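Cytochrome P450 genes of families 1 to 3 were followed across the kidneys of 2 rat strains. The members were all genes whose symbol in the platform's probe annotation was Cyp, a family number of 1, 2 or 3, a subfamily letter and a gene number, on a probe set with a single symbol. This gave 30 of the 14217 genes named on the array, 3 in family 1, 24 in family 2 and 3 in family 3, carried by 32 probe sets. Each gene was read from its probe set with the highest mean over the 28 arrays. Values are deposited log2 values, so a difference of 1 is a doubling of signal.

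P450 enzymes of these families are heme proteins of the endoplasmic reticulum that insert 1 atom of oxygen into drugs, pollutants, steroids and fatty acids, with electrons passed on by the reductase Por and by cytochrome b5. In the kidney they lie mostly in the proximal tubule, where the Cyp2c and Cyp2j enzymes turn arachidonic acid into epoxides that relax vessels and promote sodium excretion, and the soluble epoxide hydrolase Ephx2 then breaks these epoxides down. Family 1 is known for induction through the aryl hydrocarbon receptor, Ahr, and families 2 and 3 for induction through the receptors Nr1i3 and Nr1i2. Several rat Cyp2a, Cyp2c and Cyp3a genes are known chiefly from the liver, where growth hormone makes them differ between the sexes.

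All animals were female, ate standard chow and were killed at an age of 5 months. Each strain, SBN/y or SBH/y, gave 7 arrays from rats that kept both kidneys after a sham operation and 7 from rats whose right kidney had been removed 4 months earlier, which makes 4 groups. SBN/y and SBH/y are the Sabra strains, of which SBH/y is known for salt-sensitive hypertension and protein loss in the urine. The series was made to study proteinuria, and the comparisons asked how the strains differ and how each responds to the loss of a kidney. The labels number the arrays of a group from 1 to 7 and do not say whether they were separate animals. The p-values therefore speak only of the spread among these arrays, which may be technical. Whole kidney was measured, so fewer cells of a type and less RNA per cell cannot be told apart.

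The arrays had medians between 5.72 and 5.77 and correlated with each other at 0.985 to 0.997 over 31042 probe sets. Kidney identity was clear, since all 17 measured markers of the proximal tubule had a mean above the array median, while none of 10 adrenal markers did. Of 11 adipose markers, however, 8 had a mean above it. In SBH/y with both kidneys 1 of these 11 was higher and 3 were lower than in SBN/y, among the lower Ucp1 at -2.74 ± 0.38. Markers of other kidney cells also moved with the comparisons: in SBH/y with both kidneys 5 of 9 macrophage markers were higher and 1 lower than in SBN/y and 6 of 8 collecting duct markers were lower, and after uninephrectomy of SBH/y 4 of 4 podocyte markers fell. Of all genes 11.8% were higher and 9.69% lower in SBH/y with both kidneys, and 5.51% fell after uninephrectomy of SBH/y. The part of these markers in the differences of the members was not tested. Some arrays stood apart from their groups. A clock score, the mean of 3 clock activators (Bmal1, Npas2, Clock) minus that of 9 clock outputs of the opposite phase, lay between -2.60 and -1.80 in 6 of 7 arrays of uninephrectomized SBH/y, against 0.87 to 1.48 in SBH/y with both kidneys. Array 2 of uninephrectomized SBH/y was at 1.30, and array 6 of uninephrectomized SBN/y was at -1.85 where the other 6 lay between 0.48 and 1.18. In SBN/y with both kidneys the score lay between -0.39 and 0.99. Its median there was -0.27, against 1.19 in SBH/y with both kidneys and 0.66 in uninephrectomized SBN/y. The clock state therefore moved with the uninephrectomy comparison in SBH/y and with the strain comparison after uninephrectomy. It also differed in median, with overlap, between the strains with both kidneys and between the 2 SBN/y groups. Albumin, Alb, a liver gene, was at 10.05 in array 1 of uninephrectomized SBN/y, and at 8.82, 8.69 and 8.46 in 3 more SBN/y arrays (array 1 with both kidneys, arrays 7 and 6 after uninephrectomy), against 7.54 at most in the remaining 24 arrays.

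Of the 30 members, 10 had a mean over all arrays above 5.74, the median of the array medians, and 20 lay below it in every group. The 10 above were Cyp2c23, Cyp2e1, Cyp2d2, Cyp1a1, Cyp2d4, Cyp2u1, Cyp2t1, Cyp2s1, Cyp2j4 and Cyp1b1. The lowest of them was Cyp1b1 at 5.92, and the highest of the 20 below was Cyp2f4 at 4.85. The 20 below were Cyp2f4, Cyp1a2, Cyp2j3, Cyp2d3, Cyp2c11, Cyp2g1, Cyp2b3, Cyp2a3, Cyp2j10, Cyp3a9, Cyp2c7, Cyp2c22, Cyp2c12, Cyp2b21, Cyp3a18, Cyp2c13, Cyp2a1, Cyp2a2, Cyp2b12 and Cyp3a2. All 3 members of family 3 and all 3 of the Cyp2b subfamily were among them, as were 5 of 6 Cyp2c genes. Values of different probe sets depend on their probes and were not set against each other. For the dim genes signal over background was not measured, so a difference there is one of array signal, not an exact fold of RNA.

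**Figure D1:**
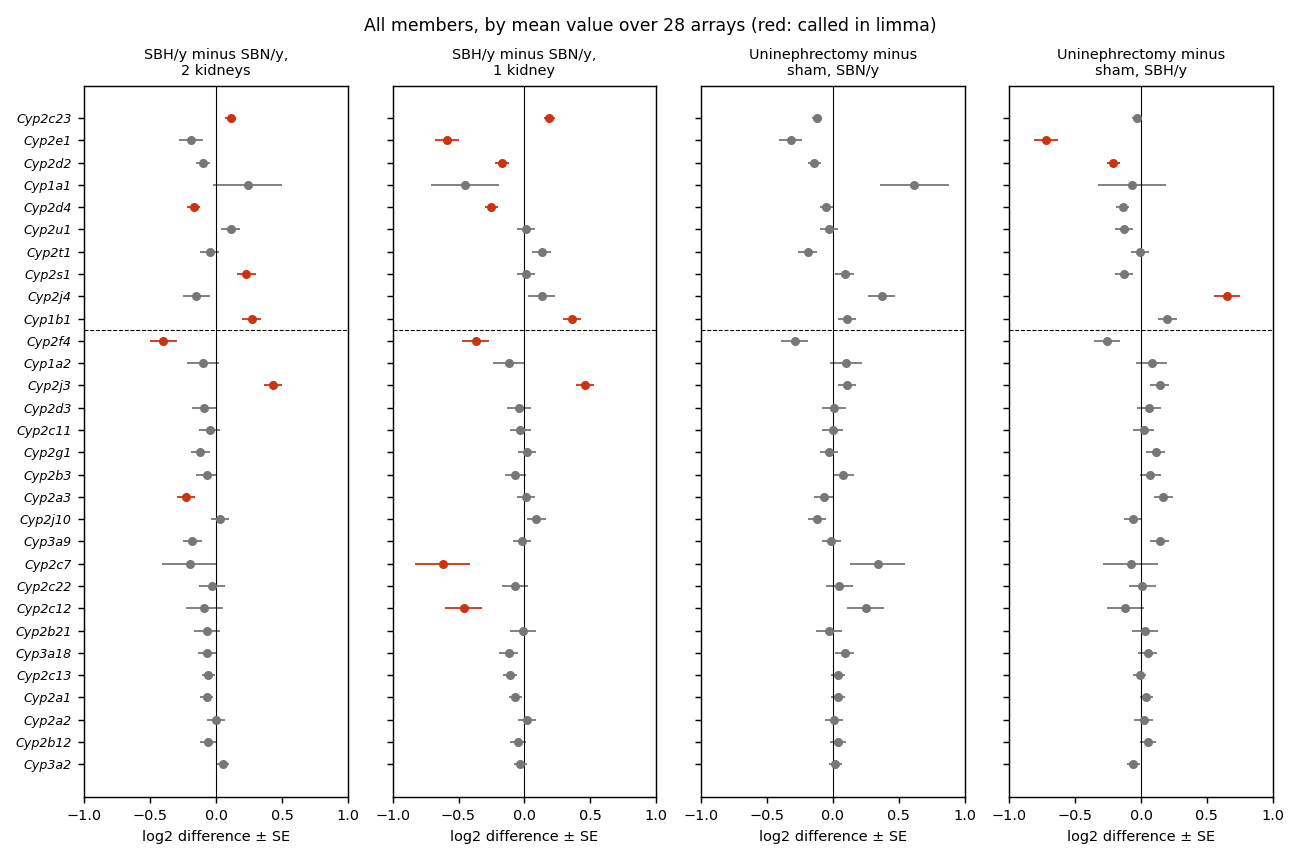
Log2 difference (x axis, bars are the standard error from limma) of all 30 members, ordered from top to bottom by their mean over 28 arrays, in 4 comparisons with 7 arrays per group. Red points passed the adjusted threshold of 0.05, and the dashed line separates the 10 members above the array median from the 20 below; most red points lie in the 2 strain comparisons, none in SBN/y after uninephrectomy and 3 in SBH/y.

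Called below means an adjusted p under 0.05 in limma over all 31042 probe sets. With both kidneys 7 of 30 members were called between the strains, where 21.5% of all genes were. After uninephrectomy it was 9 of 30, against 26.8% of all genes. The uninephrectomy effect was called for 3 of 30 in SBH/y, against 10.4% of all genes, and for 0 of 30 in SBN/y, against 0.605%, with 7 members at an unadjusted p under 0.05. The interaction, in which the effect in SBN/y is subtracted from that in SBH/y, was called for 0 of 30 members and 2.06% of all genes, with 3 members at an unadjusted p under 0.05. The share of all genes at that unadjusted p was not counted. The unadjusted counts of 7 and 3 members therefore show no excess over other genes. Of the 7 members called with both kidneys 4 were higher and 3 lower in SBH/y, and after uninephrectomy 3 and 6. In the strain comparisons and in SBH/y after uninephrectomy the members' share was near that of all genes. Among the 10 members above the array median 4, 5, 0, 3 and 0 were called in the 5 comparisons in the order just given for the strains with both kidneys, the strains after uninephrectomy, SBN/y, SBH/y and the interaction, beside 26.4%, 33.7%, 0.816%, 13.1% and 2.74% of all genes above it. In all, 12 members were called in at least 1 comparison, 7 of the 10 above the array median and 5 of the 20 below it, where 36.6% of all genes, 45.0% of those above the array median and 20.2% of those below it were.

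The promoter windows of 4 genes are shown first, those of the 2 members with the largest called changes after uninephrectomy, Cyp2e1 and Cyp2j4, and those of Cyp2c7 and Cyp2c12, which were both highest in the same array. Each runs from 250 bases before to 50 after the start of the gene, from RefSeq on GRCr8, which holds windows for 28 of the 30 members. Capitals mark matches on either strand to any of 7 motifs. For liver-type factors these were GTTAAT, a part of the HNF1 site, the HNF4 core AGTCCA and the C/EBP site TTGCNNAA. The E-box CACGTG is the site of the clock activators. For receptors they were the nuclear receptor element AGGTCA and the Ahr core GCGTG. The last was the promoter box TATAAA.
Cyp2e1 (GRCr8, chr1:205269717-205270016, strand +): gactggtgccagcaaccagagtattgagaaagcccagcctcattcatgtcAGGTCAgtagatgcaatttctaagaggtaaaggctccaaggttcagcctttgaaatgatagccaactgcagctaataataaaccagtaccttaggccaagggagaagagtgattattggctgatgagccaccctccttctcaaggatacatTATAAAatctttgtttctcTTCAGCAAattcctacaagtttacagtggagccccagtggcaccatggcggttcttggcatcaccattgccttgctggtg
Cyp2j4 (GRCr8, chr5:116322993-116323292, strand -): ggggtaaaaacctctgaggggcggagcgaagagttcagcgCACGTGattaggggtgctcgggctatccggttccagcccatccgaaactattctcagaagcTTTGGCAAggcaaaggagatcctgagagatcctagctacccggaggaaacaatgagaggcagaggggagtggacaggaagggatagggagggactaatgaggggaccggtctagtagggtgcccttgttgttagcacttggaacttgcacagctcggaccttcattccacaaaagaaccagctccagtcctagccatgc
Cyp2c7 (GRCr8, chr1:247966144-247966443, strand +): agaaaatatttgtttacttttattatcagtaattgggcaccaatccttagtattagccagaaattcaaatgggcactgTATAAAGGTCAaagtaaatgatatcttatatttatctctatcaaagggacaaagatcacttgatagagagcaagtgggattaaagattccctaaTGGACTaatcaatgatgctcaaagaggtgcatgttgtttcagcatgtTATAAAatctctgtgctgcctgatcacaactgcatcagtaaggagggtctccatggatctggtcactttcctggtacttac
Cyp2c12 (GRCr8, chr1:248676985-248677284, strand -): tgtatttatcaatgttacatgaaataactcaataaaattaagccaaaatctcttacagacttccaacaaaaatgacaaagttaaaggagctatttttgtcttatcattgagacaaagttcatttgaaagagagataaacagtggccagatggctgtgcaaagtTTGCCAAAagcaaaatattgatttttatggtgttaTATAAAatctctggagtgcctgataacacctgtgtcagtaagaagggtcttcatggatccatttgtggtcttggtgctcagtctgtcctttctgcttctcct
The Cyp2e1 window held 1 match each to AGGTCA and to TATAAA, and on the opposite strand 1 to TTGCNNAA. The Cyp2j4 window held the E-box CACGTG from -210 to -205 and 1 TTGCNNAA match, and no TATAAA. In the Cyp2c7 window a TATAAA from -172 to -167 shared its last base with an AGGTCA, and no other matches in the 4 windows overlapped. The Cyp2c7 and Cyp2c12 windows were identical at 71.0% of 269 aligned bases. CACGTG was found in 1 of 28 member windows and in 6.42% of 33469 windows of all genes, TATAAA in 35.7% of member windows and 14.2% of all, AGGTCA in 35.7% and 16.2%, and TTGCNNAA in 39.3% and 10.6%. AGTCCA was in 7 of 28 member windows and 14.1% of all, GTTAAT in 10.7% and 7.45%, and GCGTG in 10.7% and 29.7%. These are matches of letters and not measured sites.

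Cyp2e1, which oxidizes ethanol, acetone and small solvents, had the largest called change. In SBH/y with both kidneys its lowest, median and highest values were 11.63, 11.83 and 11.87, and after uninephrectomy they were 10.75, 11.09 and 11.27. All 7 uninephrectomized SBH/y arrays lay below all 7 with both kidneys. The log2 difference was -0.72 ± 0.09 (SE, n = 7 arrays per group), a signal 1.64 times lower, with a limma adjusted p of 3.83e-06. In SBN/y the values were 11.59, 12.10 and 12.25 with both kidneys and 11.44, 11.72 and 11.82 after uninephrectomy. These groups overlapped, and the difference of -0.32 ± 0.09 was not called (limma adjusted p 0.11). The interaction was -0.40 ± 0.12, which did not pass either (limma adjusted p 0.116). Leaving out array 4 of SBN/y with both kidneys brought the SBN/y effect past the threshold, at -0.38.

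Between the strains Cyp2e1 was lower in SBH/y after uninephrectomy by a log2 difference of -0.59 ± 0.09 (limma adjusted p 5.13e-06), with no overlap between the groups. Groups without overlap were found for 11.8% of all genes in that comparison (4 members), for 2.68% with uninephrectomy in SBH/y (3 members) and for 0.556% in SBN/y (0 members). With both kidneys the strain difference was -0.19 ± 0.09 and not called. Array 2 of uninephrectomized SBH/y, whose clock score was that of the sham group, had a Cyp2e1 value of 11.27. This was the highest of its group, the other 6 lying between 10.75 and 11.25, and below the lowest sham array at 11.63. With the clock score as a covariate the uninephrectomy difference in SBH/y was -0.77 and stayed past the threshold. The mean of the 17 proximal tubule markers had a median over arrays of 11.85 in SBH/y with both kidneys and 11.76 after uninephrectomy. Of these markers 1 rose and 2 fell in that comparison, where 4.85% and 5.51% of all genes did.

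Cyp2j4, a Cyp2j enzyme known mainly from the small intestine, went the other way. Its values in SBH/y were 5.57, 5.81 and 5.89 with both kidneys and 6.18, 6.49 and 6.62 after uninephrectomy, lowest, median and highest. Again the groups did not overlap. The difference was 0.65 ± 0.10 (SE, n = 7 per group), 1.57-fold, with a limma adjusted p of 7.41e-05. In SBN/y the values were 5.63, 6.05 and 6.22 with both kidneys and 5.89, 6.43 and 6.57 after uninephrectomy, with overlap, and the difference of 0.37 ± 0.10 was not called (limma adjusted p 0.0996). It passed without array 2 of uninephrectomized SBN/y, at 0.44. The difference between the strains' effects was 0.28 ± 0.14 and not called, nor did the strains differ at either kidney number, with -0.15 ± 0.10 and 0.13 ± 0.10. With the clock score as a covariate the effect in SBH/y was 0.57 and no longer called (limma adjusted p 0.153). Array 2 of uninephrectomized SBH/y, with the sham group's clock score, was at 6.26, above every sham array of SBH/y, with the other 6 of its group between 6.18 and 6.62.

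Cyp2d2, the rat debrisoquine hydroxylase, followed Cyp2e1 by a smaller amount. Its values in SBH/y were 10.93, 10.98 and 11.11 with both kidneys and 10.64, 10.84 and 10.93 after uninephrectomy, and the groups met without overlap at 10.93. The difference was -0.21 ± 0.05 (limma adjusted p 0.0122), or -0.23 and not called with the clock score as a covariate (limma adjusted p 0.389). In SBN/y the values were 11.02, 11.09 and 11.27 with both kidneys and 10.80, 11.01 and 11.05 after uninephrectomy, a difference of -0.14 ± 0.05 that was not called. After uninephrectomy SBH/y was lower than SBN/y by a difference of -0.17 ± 0.05 (limma adjusted p 0.0218). That call was lost without array 1 or 3 of uninephrectomized SBN/y or array 6 or 7 of uninephrectomized SBH/y, with differences from -0.20 to -0.14 over all fits without 1 array. It was also lost with the clock score as a covariate, at -0.19, and without the 4 arrays of high albumin, at -0.17 (limma adjusted p 0.0972 and 0.0624). Of those 4 arrays 3 were of uninephrectomized SBN/y, and leaving them out did not change the rounded difference.

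**Figure D2:**
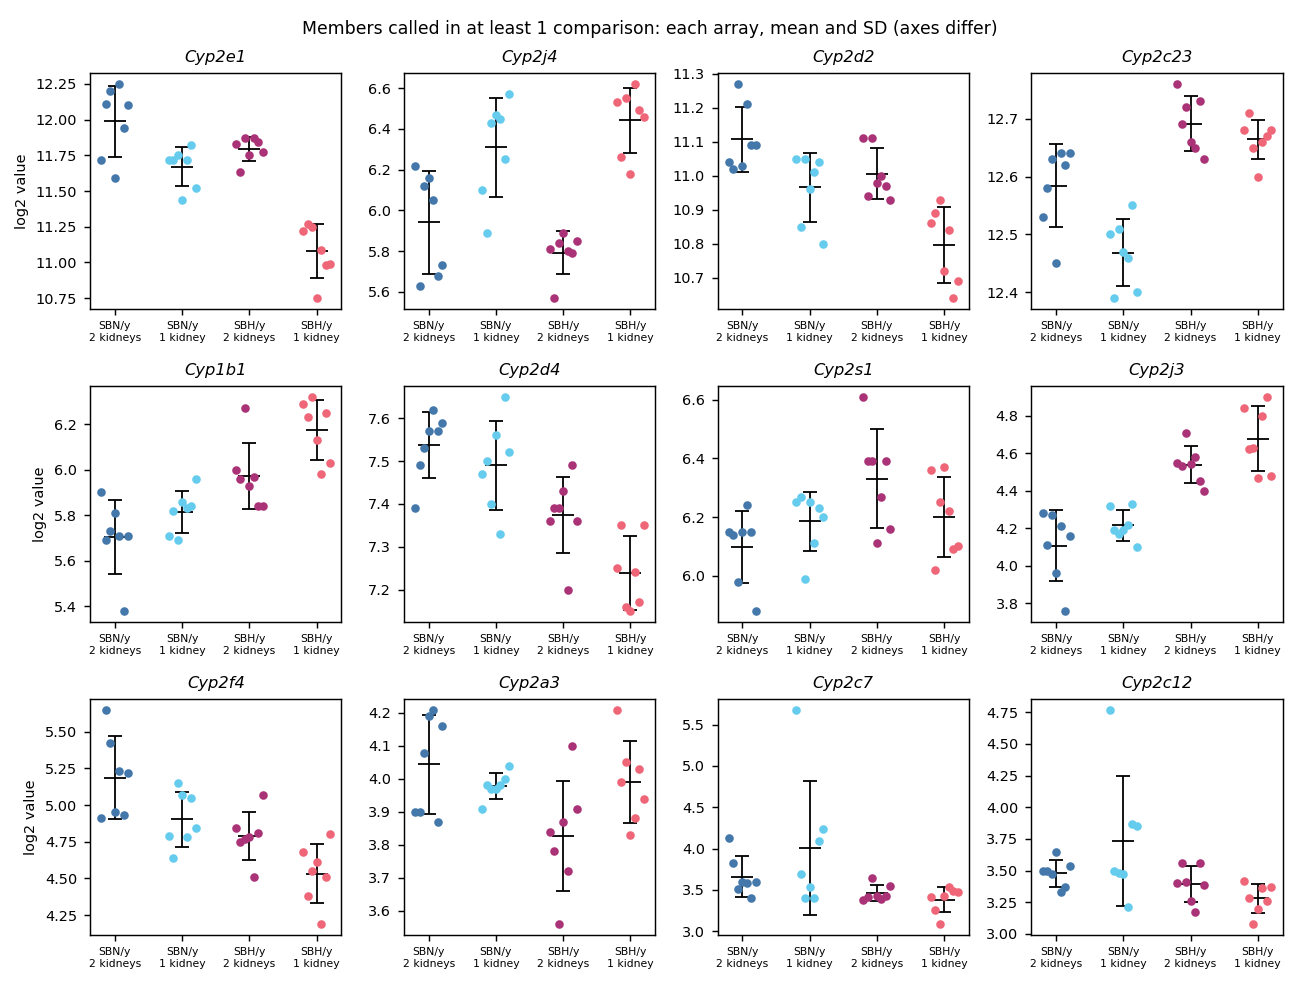
Log2 values (y axis, a different range in each panel) of the 12 members called in at least 1 comparison, a point for each of the 7 arrays of the 4 groups, with the mean and SD as black bars. Cyp2e1 and Cyp2j4 move in opposite directions after uninephrectomy of SBH/y, Cyp2j3 separates the strains at both kidney numbers, and single high arrays of uninephrectomized SBN/y stand out for Cyp2c7 and Cyp2c12.

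Among the arachidonate epoxygenases, Cyp2c23, the main such enzyme of the rat kidney, was higher in SBH/y by small amounts. With both kidneys its values were 12.45, 12.62 and 12.64 in SBN/y and 12.63, 12.69 and 12.76 in SBH/y, which overlapped narrowly. The difference was 0.11 ± 0.04 (limma adjusted p 0.0446). This call was lost when any of 9 arrays was left out (arrays 1, 2 and 4 of SBN/y and 1, 2, 3 and 6 of SBH/y with both kidneys, arrays 1 and 5 of uninephrectomized SBH/y), and without the 4 arrays of high albumin. It was also lost with quantile normalization, at 0.07, with array weights and in a fit of these 2 groups alone. After uninephrectomy the values were 12.39, 12.47 and 12.55 in SBN/y and 12.60, 12.67 and 12.71 in SBH/y, with no overlap and a difference of 0.19 ± 0.04 (limma adjusted p 0.000194). The uninephrectomy effect on Cyp2c23 was -0.12 ± 0.04 in SBN/y and -0.03 ± 0.04 in SBH/y, neither called.

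Cyp2j3, an epoxygenase of the same subfamily as Cyp2j4, was higher in SBH/y at both kidney numbers. With both kidneys its values were 3.76, 4.16 and 4.28 in SBN/y and 4.40, 4.54 and 4.71 in SBH/y, and after uninephrectomy 4.10, 4.19 and 4.33 against 4.47, 4.63 and 4.90. The strains did not overlap in either comparison, and Cyp2j3 was the only member of which this held with both kidneys, where it held for 8.53% of all genes. The differences were 0.43 ± 0.07 and 0.46 ± 0.07 (limma adjusted p 4.65e-05 and 1.32e-05). A second probe set of Cyp2j3 had 0.26 ± 0.12, not called, and 0.34 ± 0.12, called. All values of Cyp2j3 lay below the array median, and the uninephrectomy differences were 0.11 ± 0.07 for SBN/y and 0.14 ± 0.07 for SBH/y, neither called. Cyp2j10, the remaining member of the subfamily, was called in no comparison. The genes Cyp2j10, Cyp2j4 and Cyp2j3 lie near each other in the RefSeq order of GRCr8, yet Cyp2j4 was called only for uninephrectomy in SBH/y and Cyp2j3 only between the strains. Whether the pattern of one differs from that of the other was not tested.

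Of the other drug-metabolizing genes above the array median, Cyp2d4, a drug-oxidizing enzyme also found in brain, was lower in SBH/y. Its values were 7.39, 7.57 and 7.62 in SBN/y and 7.20, 7.39 and 7.49 in SBH/y with both kidneys, and 7.33, 7.50 and 7.65 against 7.15, 7.24 and 7.35 after uninephrectomy. The groups overlapped in both cases. The differences were -0.17 ± 0.05 (limma adjusted p 0.0199) and -0.25 ± 0.05 (limma adjusted p 0.000319). The first was lost without array 5 of SBH/y with both kidneys, and with the clock score as a covariate, at -0.15. A second probe set of Cyp2d4 gave -0.21 ± 0.09, not called, and -0.27 ± 0.09, called. Cyp2s1, an enzyme of epithelia outside the liver, was higher in SBH/y with both kidneys by 0.23 ± 0.07 (limma adjusted p 0.0178), with values of 5.88 to 6.24 in SBN/y and 6.11 to 6.61 in SBH/y. That call was lost without array 7 of SBN/y or array 1 of SBH/y, and after uninephrectomy the difference was 0.01 ± 0.07. Cyp2u1, a fatty acid hydroxylase, and Cyp2t1 were called in no comparison, with log2 differences between -0.19 and 0.13 in the 4 comparisons of groups.

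In family 1, Cyp1b1, which oxidizes estrogens and polycyclic hydrocarbons outside the liver, was higher in SBH/y. Its values with both kidneys were 5.38, 5.71 and 5.90 in SBN/y and 5.84, 5.96 and 6.27 in SBH/y, which overlapped. After uninephrectomy they were 5.69, 5.83 and 5.96 against 5.98, 6.23 and 6.32, which did not. The differences were 0.27 ± 0.07 and 0.36 ± 0.07 (limma adjusted p 0.00596 and 0.000191), and all alternatives and fits without 1 array kept both calls. Cyp1a2 lay below the array median and was called in no comparison.

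Cyp1a1, the classical target of Ahr, varied widely between arrays of 1 group. Its values in SBN/y were 7.06, 8.17 and 9.61 with both kidneys and 8.17, 8.75 and 9.71 after uninephrectomy. In SBH/y they were 8.02, 8.58 and 8.95, and 7.58, 8.48 and 8.94. The SD was 0.80 in SBN/y with both kidneys, against 0.25 for Cyp2e1 in the same arrays. All 4 groups overlapped and no comparison was called, the largest difference being 0.62 ± 0.26 for uninephrectomy in SBN/y (limma adjusted p 0.465). In a fit over the 4 groups together, the value within groups was lower where the clock score was higher. No group was fitted alone. Array 6 of uninephrectomized SBN/y, with the low score of -1.85, had the highest Cyp1a1 of all arrays at 9.71, where the other 6 arrays of the group lay between 8.17 and 9.20. Array 2 of uninephrectomized SBH/y, with the high score of 1.30, had the lowest value of its group at 7.58, where the other 6 lay between 8.29 and 8.94.

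The slope of Cyp1a1 on the clock score within groups was -0.40 ± 0.08 log2 units per unit of the score (limma adjusted p 0.00973), in a fit added after the values had been seen. Cyp1a1 was the only member called for this slope, beside 1.09% of all genes. Without the 2 arrays just named the slope was -0.81 ± 0.19 and not called (limma adjusted p 0.332), and 0.0422% of all genes were called then. The call was thus lost without them, while the slope in the remaining arrays was steeper and of the same sign. With the score as a covariate Cyp1a1 was higher in SBH/y by 0.65 with both kidneys and lower by a difference of -1.30 after uninephrectomy, both called (limma adjusted p 0.0406 and 0.000799). Without the covariate these differences were 0.24 ± 0.26 and -0.45 ± 0.26. Because the clock score itself differed between the groups, strain, operation and clock state cannot be told apart for Cyp1a1.

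**Figure D3:**
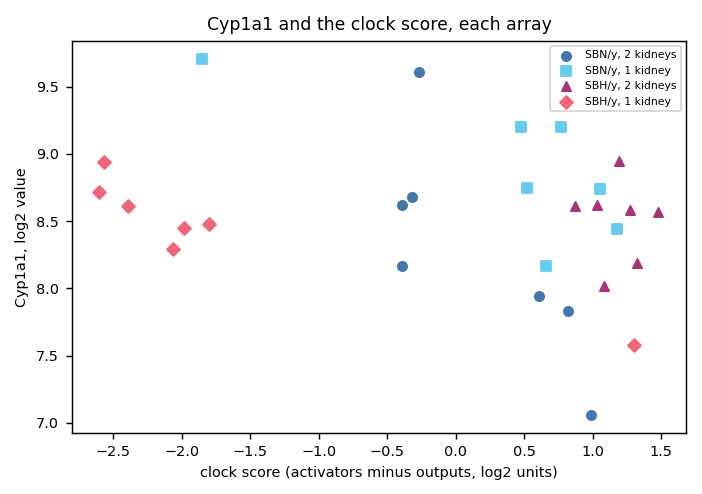
Cyp1a1 log2 value (y axis) against the clock score of the array (x axis, log2 units), a point per array with the group as colour and shape. The array of uninephrectomized SBN/y at a score of -1.85 has the highest value, 9.71, and the array of uninephrectomized SBH/y at 1.30 the lowest of its group, 7.58.

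Cyp2c7 and Cyp2c12, enzymes known from female rat liver, were called lower in SBH/y after uninephrectomy. Cyp2c7 had values of 3.40, 3.69 and 5.68 in uninephrectomized SBN/y and 3.09, 3.43 and 3.53 in uninephrectomized SBH/y, with a difference of -0.62 ± 0.21 (limma adjusted p 0.0295). Cyp2c12 had 3.21, 3.50 and 4.77 against 3.08, 3.28 and 3.42, with -0.46 ± 0.14 (limma adjusted p 0.0131). The groups overlapped, and the difference lay in a few arrays of SBN/y. Array 1 of uninephrectomized SBN/y held the highest value of both genes, 5.68 and 4.77. It also held the highest Alb of all arrays. The 4 arrays with the highest Alb, at 10.05, 8.82, 8.69 and 8.46, had Cyp2c7 at 5.68, 4.13, 4.24 and 4.09, the 4 highest values of that gene among 28 arrays, where the remaining arrays lay between 3.09 and 3.83. Cyp2c12 was at 4.77, 3.50, 3.85 and 3.87 in these arrays, so it was high in the 3 of uninephrectomized SBN/y, while the value of 3.50 in array 1 of SBN/y with both kidneys lay within the 3.08 to 3.65 of the remaining 24.

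Of 12 liver markers measured, 6 were highest in array 1 among the 7 arrays of uninephrectomized SBN/y, among them transthyretin, Ttr, at 5.79 where the other 6 arrays lay between 4.97 and 5.31. Array 1 was picked by its Alb, so Alb is among the 6 by that choice. Apoa1 was at 4.16 in array 1, the lowest value of the group. The mean of the 12 markers lay between 4.67 and 5.50 in uninephrectomized SBN/y and between 5.00 and 5.24 in uninephrectomized SBH/y, and 2 of the 12 had a mean above the array median. Without the 4 arrays of high Alb the differences were -0.12 for Cyp2c7 and -0.14 for Cyp2c12, neither called (limma adjusted p 0.365 and 0.29). These arrays were left out after the values had been seen. They held the 4 highest Cyp2c7 values, and 3 of them were among the 7 of uninephrectomized SBN/y. The smaller differences therefore followed from the choice of arrays and are no separate test. The Cyp2c7 call was also lost without array 7 of uninephrectomized SBN/y or array 3 of uninephrectomized SBH/y. It was lost too without the 2 arrays of a clock score apart and with trended and robust variance estimates. Without array 1 of uninephrectomized SBN/y the difference shrank to -0.34 for Cyp2c7 and -0.28 for Cyp2c12, and both calls were kept. Both calls were lost with the clock score as a covariate, at -0.69 and -0.52, and in a fit of these 2 groups alone. The male-type liver gene Cyp2c11 did not follow, with 4.12 in array 1 of uninephrectomized SBN/y and 3.94 to 4.36 in the group.

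**Figure D4:**
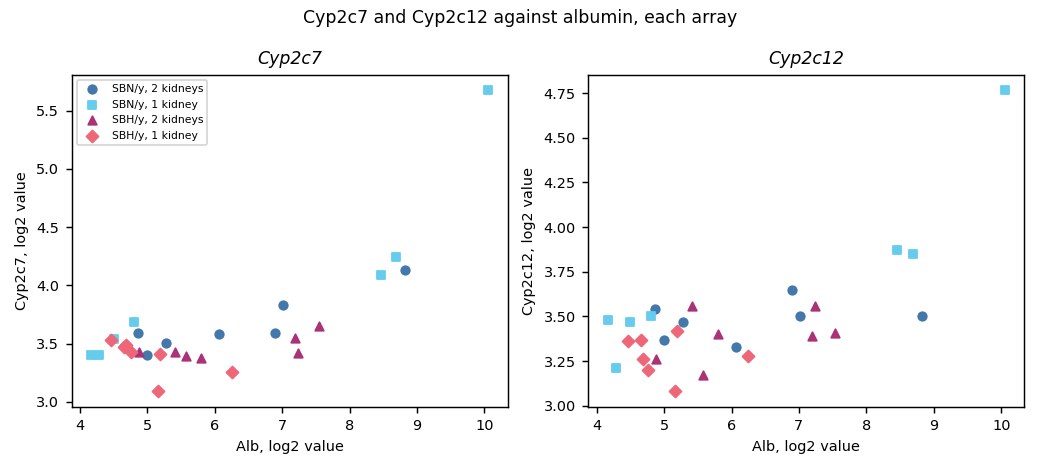
Cyp2c7 (left) and Cyp2c12 (right) log2 value (y axis) against the log2 value of albumin, Alb (x axis), a point per array with the group as colour and shape. The array with the highest Alb, 10.05, has the highest Cyp2c7 and Cyp2c12, and all 4 arrays with Alb at 8.46 or above lie above 4.0 for Cyp2c7.

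Of the remaining dim members, Cyp2f4, known for the activation of naphthalene in the lung, was lower in SBH/y at both kidney numbers. Its values were 4.91 to 5.65 in SBN/y and 4.51 to 5.07 in SBH/y with both kidneys, and 4.64 to 5.15 against 4.19 to 4.80 after uninephrectomy. The differences were -0.40 ± 0.10 and -0.37 ± 0.10 (limma adjusted p 0.00638 and 0.0096). Cyp2a3, an enzyme of the nasal lining and lung, was lower in SBH/y with both kidneys by a difference of -0.23 ± 0.07 (limma adjusted p 0.0177), a call lost without array 3 of SBH/y, at -0.18, with the clock score as a covariate, at -0.20, and in a fit of these 2 groups alone (limma adjusted p 0.059, 0.0718 and 0.0613). The 15 dim members that were not called, Cyp1a2 and all of the Cyp2b and Cyp3a genes among them, had log2 differences between -0.18 and 0.14 in the 4 comparisons of groups. At such low signals the lack of a call is no measurement of equal RNA.

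Several members are neighbours in the genome. In the RefSeq order of GRCr8, 10 members from Cyp2s1 to Cyp2t1 are near neighbours, with at most 25 protein-coding genes from one to the next. Of these, 3 were called between the strains with both kidneys and 1 after uninephrectomy, beside 21.5% and 26.8% of all genes. Of the 5 neighbouring liver-type Cyp2c genes 2 were called, Cyp2c7 and Cyp2c12, both between the strains after uninephrectomy, beside the same 26.8%. Whether neighbours were called together more often than other genes was not tested. The 5 members called in both strain comparisons, Cyp1b1, Cyp2c23, Cyp2d4, Cyp2f4 and Cyp2j3, went the same way in each. The strains' own sequences were not used here, so in a strain difference a variant under a probe cannot be told apart from expression, and close paralogs can share probes.

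A further probe set of the Cyp2b subfamily showed a larger strain difference than any member. The annotation gives it 2 Cyp2b genes, so it belongs to no single gene and was not counted as a member. Its values were 3.44, 3.77 and 4.20 in SBN/y and 7.31, 7.55 and 8.14 in SBH/y with both kidneys, and 3.51, 3.78 and 4.06 against 5.74, 5.90 and 6.62 after uninephrectomy. All arrays of SBH/y lay above all arrays of SBN/y, and uninephrectomized SBH/y lay wholly below SBH/y with both kidneys. The strain difference was 3.81 ± 0.14 with both kidneys and 2.28 ± 0.14 after uninephrectomy (limma adjusted p 7.05e-20 and 2.87e-14). Uninephrectomy lowered it in SBH/y, with a difference of -1.59 ± 0.14 (limma adjusted p 4.54e-09), while SBN/y had -0.06 ± 0.14, not called, where it lay below the array median. In SBN/y signal over background was not measured and a fall may not have been measurable, so the interaction is no measure of how far the responses of the strains differ. It was -1.53 ± 0.19 (limma adjusted p 0.000166), or -1.39 and not called with the clock score as a covariate (limma adjusted p 0.134). Array 2 of uninephrectomized SBH/y, with the sham group's clock score, was at 6.38, inside the range of the other 6. The single-gene probe sets of Cyp2b3, Cyp2b12 and Cyp2b21 were called in no comparison.

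**Figure D5:**
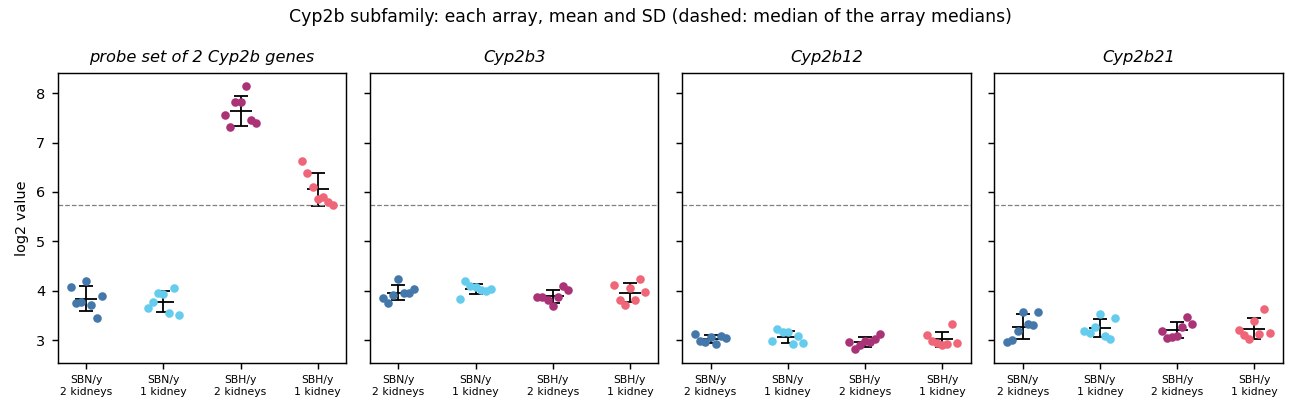
Log2 values (y axis) of the probe set annotated to 2 Cyp2b genes and of the 3 Cyp2b members, a point for each array of the 4 groups, with mean and SD as black bars and the median of the array medians as a dashed line. Only the probe set of 2 genes separates the groups, at 7.31 to 8.14 in SBH/y with both kidneys, 5.74 to 6.62 after uninephrectomy and 4.20 or lower in SBN/y.

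Genes that serve the P450s were followed as well. Of 17 measured genes of electron transfer and heme synthesis and breakdown, 1 was higher and 6 were lower in SBH/y with both kidneys, and 4 and 9 after uninephrectomy, where 11.8% and 9.69% of all genes were higher and lower in the first case and 14.9% and 11.9% in the second. The list's median was -0.06 and -0.13, against -0.01 and 0.00 over all genes. Cyb5b, the outer mitochondrial cytochrome b5, differed by -0.67 ± 0.05 and -0.75 ± 0.05, and the heme enzyme Alad by -0.42 ± 0.05 with both kidneys. Alas1, the rate-limiting enzyme of heme synthesis, differed by -0.47 ± 0.06 after uninephrectomy. The heme enzyme Fech went the other way, by 0.33 ± 0.05 with both kidneys and 0.32 ± 0.05 after uninephrectomy. Por, the reductase that feeds all members, rose after uninephrectomy of SBH/y by 0.55 ± 0.08 (limma adjusted p 6.82e-05), and its effect exceeded that in SBN/y by 0.59 ± 0.12 (limma adjusted p 0.00913). Hmox1, which breaks heme down, rose by 0.62 ± 0.09 in the same comparison. In SBH/y 2 genes of the list rose and 2 fell, beside 4.85% and 5.51% of all genes, and in SBN/y 0 were called, beside 0.605%.

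Of 18 genes of arachidonate and epoxide metabolism, 3 were higher and 3 lower in SBH/y with both kidneys, and 6 and 3 after uninephrectomy. Of all genes 11.8% and 9.69% were in the first case and 14.9% and 11.9% in the second. Ephx2, the epoxide hydrolase downstream of Cyp2c23, had a mean of 10.35 in SBN/y and 9.78 in SBH/y with both kidneys, with a difference of -0.57 ± 0.05 (limma adjusted p 1.32e-09), and of -0.80 ± 0.05 after uninephrectomy. It fell after uninephrectomy of SBH/y, by a difference of -0.27 ± 0.05 (limma adjusted p 0.00156). Hpgd, which inactivates prostaglandins, was lower in SBH/y by a difference of -0.91 ± 0.15 with both kidneys. The inducible cyclooxygenase Ptgs2 rose after uninephrectomy of SBH/y by 0.55 ± 0.15, and its effect exceeded that in SBN/y by 1.07 ± 0.21 (limma adjusted p 0.00634). Its means with both kidneys and after uninephrectomy were 5.04 and 5.60 in SBH/y and 5.51 and 4.99 in SBN/y, all below the array median. With both kidneys it was lower in SBH/y by a difference of -0.47 ± 0.15, and the fall in SBN/y was not called.

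Of 25 xenobiotic receptors and liver-type transcription factors, 3 were higher and 6 lower in SBH/y with both kidneys, and 2 and 6 after uninephrectomy. Of all genes 11.8% and 9.69% were in the first case and 14.9% and 11.9% in the second. After uninephrectomy of SBH/y 0 of the 25 rose and 5 fell, where 4.85% and 5.51% of all genes did. Ahr was lower in SBH/y with both kidneys, with means of 5.65 against 6.07 and a difference of -0.42 ± 0.09 (limma adjusted p 0.00129). Nr1h4, the bile acid receptor, was higher by 0.27 ± 0.05, and the retinoid receptor Rxrg lower by a difference of -0.28 ± 0.07. The corepressor Ncor1 fell after uninephrectomy of SBH/y by a difference of -0.26 ± 0.04, as did Ppargc1a by -0.19 ± 0.04. The receptor Nr1i2 fell in the same comparison by a difference of -0.18 ± 0.06 (limma adjusted p 0.0417). Nr1i3, below the array median, was higher in SBH/y than in SBN/y after uninephrectomy by 0.22 ± 0.07 (limma adjusted p 0.0338). Of 7 further targets of Ahr measured, 0 were called between the strains with both kidneys. After uninephrectomy 2 were higher in SBH/y than in SBN/y, the quinone reductase Nqo1 by 0.18 ± 0.06 and Lrat, which esterifies retinol, by 0.19 ± 0.07. After uninephrectomy of SBH/y 1 of the 7 rose, Nqo1, by 0.26 ± 0.06.

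Of 32 conjugating and flavin-oxidizing enzymes, 4 were higher and 6 lower in SBH/y with both kidneys and 9 and 7 after uninephrectomy, and 6 rose and 4 fell after uninephrectomy of SBH/y. For this list and those that follow, 11.8% of all genes were higher and 9.69% lower in SBH/y with both kidneys. After uninephrectomy 14.9% and 11.9% were, and 4.85% rose and 5.51% fell after uninephrectomy of SBH/y. The glutathione transferase Gsta3 differed between the strains by -0.96 ± 0.10 with both kidneys, the flavin monooxygenase Fmo5 by -0.67 ± 0.07 and Gsto1 by 0.42 ± 0.03. After uninephrectomy Gstp1 rose in both strains, with 0.55 ± 0.07 for SBH/y and 0.33 ± 0.07 for SBN/y (limma adjusted p 4.52e-06 and 0.022), and Fmo1 fell in both, with -0.24 ± 0.05 for SBN/y and -0.19 ± 0.05 for SBH/y (limma adjusted p 0.0135 and 0.00955). Of 16 genes of growth hormone and sex steroid signalling, 2 were higher and 1 lower in SBH/y at either kidney number, among them Igf1 at 1.22 ± 0.12 and Hsd17b1 at -0.94 ± 0.10 with both kidneys. Of 11 genes of vitamin D and vitamin A handling, 2 were higher and 1 lower, with the retinoic acid hydroxylase Cyp26b1 at 1.53 ± 0.25 and the retinol carrier Rbp4 at -1.28 ± 0.15.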

How the data were processed

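Total RNA of 28 kidney samples was hybridized to 1-colour Affymetrix rat arrays. The authors deposited log2 values of 31099 probe sets, which the submitters' processing notes tie to GCOS and RMA (versions: not given in the sources used here); RMA equalizes the arrays' distributions, so a change in total RNA cannot be seen. After 57 control probe sets were taken out, 31042 were tested, of which 20826 had 1 gene symbol, 436 several and 9780 none. Symbols were updated by gene identifier through RefSeq's table for GRCr8 (20758 matched), and a gene was read from its probe set of highest mean. One mean per group was fitted (limma 3.58.1, R 4.3.3, default eBayes), two-sided, with Benjamini-Hochberg adjustment over all probe sets in each of 5 contrasts and a threshold of 0.05. The value after ± is the standard error. The fit was first tested on simulated data. Lowest, median and highest values are given for members called with a difference of 0.5 or more and for the 5 of highest mean, and up to 3 called genes of smallest p per gene list could be named. Cyp2j3, Cyp1b1, Cyp2c12 and the probe set of 2 Cyp2b genes were given the same way after their values had been seen. Nr1i2 and Nr1i3 were also named after their values had been seen, as the receptors given for families 2 and 3. The members and gene lists were chosen with earlier results of these data known. Same-numbered arrays of different groups correlated in their deviations at -0.09 to 0.59 (24 of 42 pairs over 0.1). Their median was 0.16, against -0.03 for the 252 other pairs. What the numbers stand for is not given in the labels, so the main fit has no block by number, and an alternative does. The alternatives were other scalings, a filter on dim probe sets, other variance models and weights, a replicate block, fits of 2 groups, the clock score as a covariate, the mean of a gene's probe sets and leaving out each array; leaving out 4 arrays of high albumin or 2 with a clock score apart was added after the data were seen. Array number limits the precision.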

Additional observations from a re-analysis of the deposited data

Results flagged for a closer look

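In 52 groups of 7 arrays tested for an array apart from the rest, 5 had one, where chance gives about 1 in 20. Cyp2c7 was at 5.68 in array 1 of uninephrectomized SBN/y, with the other 6 arrays between 3.40 and 4.24, and Cyp2c12 was at 4.77 in the same array, with the others between 3.21 and 3.87. That array had the highest Alb. Cyp2j4 was at 5.57 in array 2 of SBH/y with both kidneys, below the other 6 at 5.79 to 5.89. Cyp1b1 was at 5.38 in array 6 of SBN/y with both kidneys, below 5.69 to 5.90, and at 6.27 in array 3 of SBH/y with both kidneys, above the other 6, the lowest of which was at 5.84.

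The probe set annotated to 2 Cyp2b genes, which was no member, differed between the strains by 3.81 log2 units with both kidneys. Its interaction was -1.53 ± 0.19, past the threshold in limma (adjusted p 0.000166, between 1.07e-05 and 0.134 over the alternatives). In SBN/y it lay below the array median in every array, where a fall may not have been measurable, so this value does not measure how far the strains' responses differ.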

How the results depend on the processing

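Without the dimmest 40% of probe sets 10 members were tested, and the members called fell to 4 between the strains with both kidneys and to 5 after uninephrectomy, by fewer genes tested. With the clock score as a covariate the members called for uninephrectomy in SBH/y fell to 1, Cyp2e1; the cause was not tested. With the replicate block 2 members, Cyp2e1 and Cyp2j4, were called for uninephrectomy in SBN/y and 1, Cyp2e1, for the interaction; the block's numbers are a label and not known pairs. Leaving out each array gave 0 to 1 members called for uninephrectomy in SBN/y, 5 to 8 and 8 to 9 for the strain comparisons, 3 to 4 for uninephrectomy in SBH/y and 0 for the interaction. No called difference of a member changed sign. The calls of Cyp1b1, Cyp2f4 and Cyp2j3 in both strain comparisons, of Cyp2e1, Cyp2d4 and Cyp2c23 between the strains after uninephrectomy and of Cyp2e1 for uninephrectomy in SBH/y held in every alternative that tested them. Signal over background was not measured for the 20 dim members.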

Other observations

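Of the other P450 probe sets outside the members, the one annotated to 2 Cyp2d genes was higher in SBH/y after uninephrectomy by 0.31 ± 0.08 and rose after uninephrectomy of SBH/y by 0.26 ± 0.08 (limma adjusted p 0.00377 and 0.0368), where Cyp2d2 was lower by a difference of -0.17 ± 0.05 and fell by 0.21 ± 0.05. Its mean over all arrays was 6.80. The probe set annotated to 2 Cyp2a genes was called in no comparison. A further 2 probe sets of these families had a single symbol that did not match the rule, Cyp2c6v1 and Cyp3a23-3a1. Their means over all arrays were 2.84 and 3.05, below the array median, and neither was called in any comparison.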
